A study of Mus musculus with 12 samples.

Results

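Chemokines are small secreted proteins that guide leukocytes, and their receptors are membrane proteins coupled to G proteins. The chemokine system genes described here were all genes on the array whose platform symbol starts with Ccl, Cxcl, Cx3cl, Xcl, Ccr, Cxcr, Cx3cr or Xcr followed by a number. This rule found 52 of the 22180 genes measured by a transcript cluster (probe set) with 1 gene symbol. They comprised 34 ligands (19 Ccl, 13 Cxcl, 1 Cx3cl and 1 Xcl) and 18 receptors (10 Ccr, 6 Cxcr, 1 Cx3cr and 1 Xcr). The rule used names and not values. RNA came from the aortic arch of 3 strains, namely DBA/2J (here DBA), C57BL/6 (here B6) and 129S6/SvEvTac (here 129), and from the aortic root of 129 mice. All mice were wild-type males aged 2 to 5 months on regular chow. Each of the 4 groups had 3 Affymetrix arrays, and each array held a pool of mice (6 mice per root pool, 5 mice per arch pool, but 4 in replicate 1 of B6 arch). The labels contradict themselves in places, with arch given in a description of the root samples and apoE strains given in the series text, and the groups were taken from titles, strain and tissue.

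The study mapped loci for atherosclerosis at the aortic root in crosses between strains, and plaques form as monocytes enter the vessel wall. Ligands are held on the vessel surface and in the matrix, and a cell that carries the matching receptor moves towards the source. Ccl2 and its relatives draw monocytes through Ccr2, Cx3cl1 and Cxcl16 are made as membrane-bound proteins that also hold cells, and Cxcl12 retains progenitor cells and lymphocytes through Cxcr4. Ccr7 and Ccr9 are receptors of lymphocytes and thymocytes, and Cxcr2 is the main chemokine receptor of neutrophils.

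Of the 52 genes, 38 matched a window in a RefSeq promoter table (build GRCm38.p6) that runs from 250 bases before the annotated start to 50 bases after it. The motifs searched, on both strands, were the NF-κB consensus, GAS (TTCNNNGAA), AP-1 (TGANTCA) and the TATA box (TATAAA), and matches of different motifs did not overlap in any window of these genes. The windows of 4 genes are shown because the main differences rest on these genes. Cxcl14 and Cxcr2 separated B6 arch from the other arches, Cxcl9 had the largest difference between root and arch, and Ccl8 was higher in DBA arch and in the root than in 129 arch. Capitals mark motif matches. The windows are chr13:56296502-56296801 (minus strand) for Cxcl14, chr1:74153744-74154043 (plus strand) for Cxcr2, chr5:92328030-92328329 (minus strand) for Cxcl9 and chr11:82114935-82115234 (plus strand) for Ccl8.
Cxcl14: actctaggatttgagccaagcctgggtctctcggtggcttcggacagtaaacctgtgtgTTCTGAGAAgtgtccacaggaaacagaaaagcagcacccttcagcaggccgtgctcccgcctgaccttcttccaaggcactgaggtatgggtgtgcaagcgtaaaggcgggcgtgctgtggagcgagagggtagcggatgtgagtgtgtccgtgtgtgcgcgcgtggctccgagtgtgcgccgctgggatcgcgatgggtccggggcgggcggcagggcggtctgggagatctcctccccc
Cxcr2: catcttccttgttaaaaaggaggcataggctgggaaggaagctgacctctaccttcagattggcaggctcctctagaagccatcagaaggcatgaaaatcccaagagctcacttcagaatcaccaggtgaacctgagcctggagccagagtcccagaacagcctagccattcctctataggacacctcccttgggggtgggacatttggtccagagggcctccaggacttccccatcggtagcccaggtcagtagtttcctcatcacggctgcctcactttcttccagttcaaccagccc
Cxcl9: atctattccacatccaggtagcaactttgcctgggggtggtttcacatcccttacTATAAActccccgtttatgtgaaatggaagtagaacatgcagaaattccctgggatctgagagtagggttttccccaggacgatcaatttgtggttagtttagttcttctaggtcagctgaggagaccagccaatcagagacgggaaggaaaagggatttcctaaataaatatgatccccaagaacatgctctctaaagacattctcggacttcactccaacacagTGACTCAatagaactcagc
Ccl8: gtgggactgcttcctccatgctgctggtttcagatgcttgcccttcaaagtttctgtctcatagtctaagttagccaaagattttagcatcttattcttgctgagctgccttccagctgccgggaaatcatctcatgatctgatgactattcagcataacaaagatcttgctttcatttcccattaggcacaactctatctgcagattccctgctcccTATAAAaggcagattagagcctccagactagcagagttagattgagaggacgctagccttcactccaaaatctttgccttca
The Cxcl14 window held a GAS match 191 to 183 bases before its annotated start, and the Cxcr2 window held none of the 4 motifs. The Cxcl14 window lies within the gene's RefSeq span (chr13:56288643-56296811). Its start is therefore an internal one, and the match lies inside that span. The Cxcl9 window held a TATA box match 195 to 190 bases before the start and an AP-1 match 31 to 37 bases after it. The Ccl8 window held a TATA box match 32 to 27 bases before the start. Over all 42 windows of these genes, 11 (26.2%) held the NF-κB consensus, against 8.46% of the 32851 windows in the table. GAS was in 4 (9.52%, against 8.30%), AP-1 in 8 (19.0%, against 7.81%) and the TATA box in 12 (28.6%, against 13.6%). The 11 genes with the NF-κB consensus were Ccl1, Ccl9, Ccl20, Ccl27a, Ccr1, Ccr3, Ccr6, Cxcl1, Cxcl2, Cxcl3 and Cxcl10, and 2 of them, Ccl9 and Ccr3, passed the test between root and arch, which 15.8% of all genes and 20 of the 52 passed. A match is a stretch of letters and not a binding site.

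Values are log2 intensities. Only 19 of the 52 genes had a mean over the 12 arrays above the median of all genes, which was 5.63. Cxcl12 was the brightest, with a mean above that of 95.2% of all genes, followed by Cxcl14, Cxcl16, Ccl9, Ccl11, Cxcr4, Cx3cl1, Ccl27a, Cxcl9 and Ccr7. Cxcl12 had values of 10.21, 10.08 and 10.38 in DBA arch, 9.98, 9.68 and 9.74 in B6 arch, 10.56, 10.79 and 10.60 in 129 root, and 9.90, 10.21 and 10.06 in 129 arch. Its receptor Cxcr4 had values between 6.60 and 7.66 on all 12 arrays. The dimmest were Cxcl3, Ccr3, Ccr1l1, Ccr8 and Ccl1, with values between 1.69 and 3.79. Probe sets differ in affinity, so brightness is not an amount, and no detection calls were used, so background and low expression cannot be separated for dim genes.

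**Figure D1:**
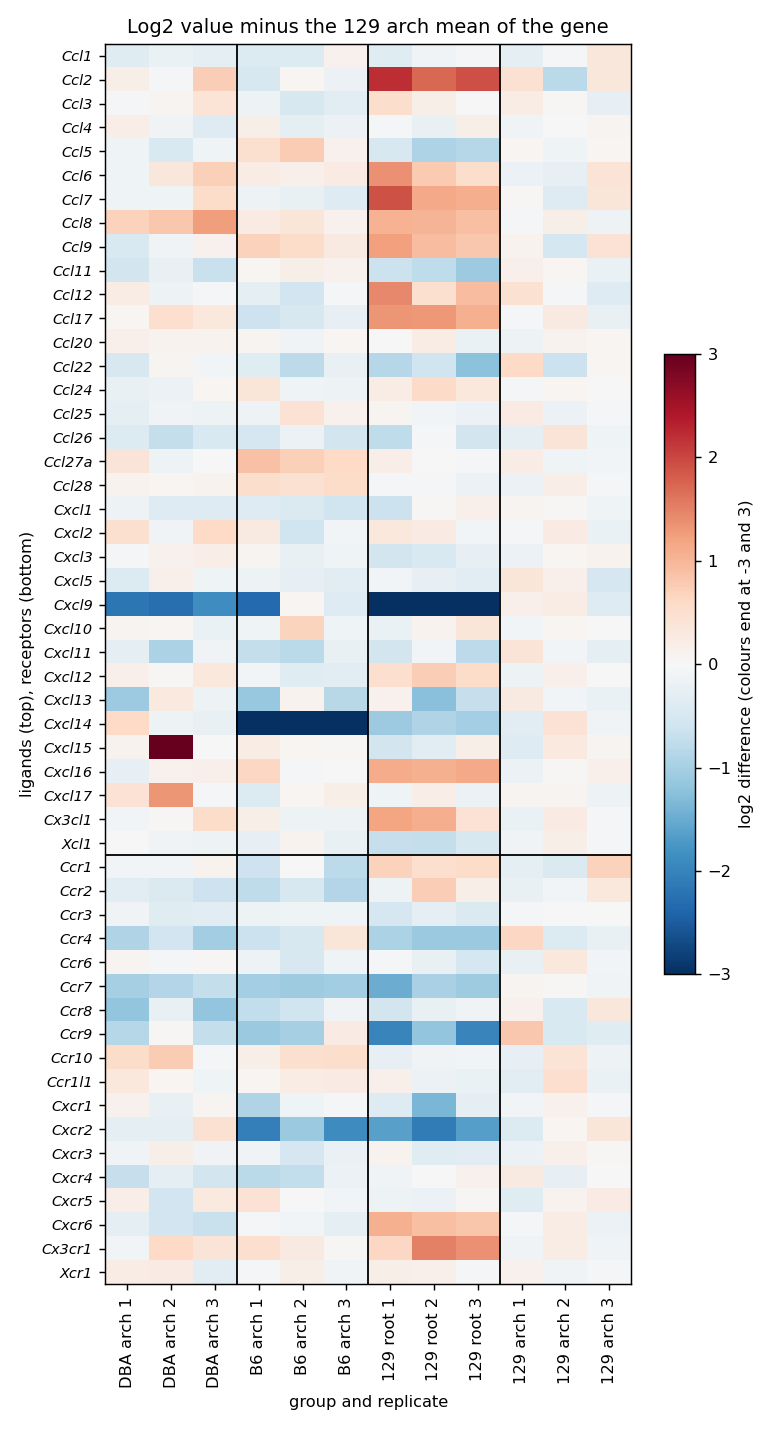
Log2 value of each of the 52 genes on each of the 12 arrays, minus the mean of that gene in 129 arch (colour, ending at -3 and 3), with ligands above receptors and groups in columns. Most cells are near 0 in the arch, Cxcl14 is dark blue on the 3 B6 arch arrays, and Cxcl9 is dark blue on the 3 root arrays.

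Differences were tested with limma over all 22180 genes with Benjamini-Hochberg adjustment, and a gene was called when its adjusted p was under 0.05. The 3 arches entered one model and share arrays, so the strain comparisons are not independent of each other. Pools were treated as separate, and p-values measure the spread between pools. Smooth muscle markers had array means between 12.05 and 12.25 on all 12 arrays. Transcripts of other organs, judged by hepatocyte, cardiomyocyte and lung epithelium markers, stood out on 2 of the 9 arch arrays. Hepatocyte markers averaged 9.26 on B6 arch replicate 1, and cardiomyocyte and lung epithelium markers averaged 11.90 and 8.64 on DBA arch replicate 2, and values without both arrays are given where a call depended on them. Lower levels of such transcripts were seen on other arch arrays, with Alb, the albumin gene, at 6.75 on DBA replicate 3 and 6.61 on 129 replicate 1 (at most 4.45 in the root) and Scgb1a1, of airway epithelium, at 7.38 on B6 replicate 3 and 6.35 on 129 replicate 2 (at most 3.76 in the root). Another hepatocyte marker, Ahsg, went the other way and was called higher in the root, at 10.31, 10.31 and 10.65 against 6.97, 7.27 and 7.54 in 129 arch. Thymocyte markers were not used to choose the arrays left out. One of them, Dntt, was at 7.39, 6.15 and 6.95 in 129 arch and 7.22 on B6 replicate 3. It was at 4.78 and 4.64 on B6 replicates 1 and 2, 4.31 to 5.67 in DBA arch and 3.06 to 3.67 in the root. Whole-tissue RNA cannot separate fewer cells of a type from less RNA per cell.

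The arches of DBA and 129 mice differed in 2 chemokine system genes, the ligand Ccl8, which was higher in DBA, and the receptor Ccr7, which was lower. Both calls together were 3.85% of the 52 genes, against a background of 1.44% of all genes called. The 3 arrays of each group did not overlap for 12 genes (23.1%), 2 higher and 10 lower in DBA, against 20.9% of all genes. The median log2 difference was -0.02 over the 52 genes and 0.00 over all genes. Ccl8, a chemokine of the monocyte chemoattractant group, had values of 5.40, 5.52 and 5.97 in DBA arch, against 4.69, 4.89 and 4.57 in 129 arch. All DBA values lay above all 129 values, and the log2 difference was 0.91 ± 0.16 (SE, adjusted p = 0.0324). The mean of B6 arch lay between, with values of 4.97, 5.07 and 4.84, and its difference from 129 arch did not pass (adjusted p = 0.646). Leaving out 1 array at a time ended the call of Ccl8 in 6 of 9 fits. Adjusted p was 0.0731 without DBA replicate 2 and 0.0707 without DBA replicate 3. It was 0.0546 without B6 replicate 3, and leaving out replicate 1, 2 or 3 of 129 gave 0.129, 0.0675 and 0.133. It was 0.0565 when these groups were fitted alone and 0.0675 when both arrays with the most transcripts of other organs were left out, within a range of 0.00764 to 0.133 over all alternatives.

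Ccr7 guides T cells and dendritic cells along gradients of Ccl19 and Ccl21. It was lower in both DBA and B6 arch than in 129 arch. Values were 6.11, 6.25 and 6.40 in DBA arch and 6.09, 6.06 and 6.08 in B6 arch, against 7.20, 7.15 and 7.00 in 129 arch. No value of DBA or B6 reached the lowest of 129. The log2 difference from 129 was -0.86 ± 0.11 in DBA (adjusted p = 0.00573), and for B6 it was -1.04 ± 0.11 (adjusted p = 0.00221). These calls held in every alternative limma fit, but with a 2-fold minimum 0 genes were called for DBA against 129 arch. T cell and thymocyte markers also varied between pools. Their 9 measured members averaged 5.74, 6.14 and 5.23 on the DBA arch arrays, 5.17, 5.16 and 6.99 on the B6 arch arrays, and 7.49, 6.59 and 6.81 on the 129 arch arrays. None of these 9 markers was called between strains, with median log2 differences of -1.50 for DBA and -1.38 for B6 against 129. B6 arch replicate 3 had a marker mean within the range of the 129 pools and a Ccr7 value of 6.08, close to the other B6 pools. The part of these markers in the strain difference of Ccr7 was not tested.

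The arch of B6 mice differed from that of 129 mice in 3 genes, all of them lower in B6: Cxcl14, Ccr7 and Cxcr2. This was 5.77% of the 52 genes, against a background of 1.45%. The groups did not overlap for 10 genes (19.2%, against 17.5% of all genes), 3 higher and 7 lower in B6, and the median log2 difference was -0.17 against -0.02 over all genes. With quantile normalisation 4 genes were called, 1 of them higher in B6. This was Ccl28, a chemokine of mucosal epithelium, chosen after its values were seen. It was dim, at 3.65, 3.58 and 3.67 in B6 arch against 2.94, 3.32 and 3.10 in 129 arch (as deposited, log2 difference 0.51 ± 0.11, adjusted p = 0.0796).

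Cxcl14, a chemokine of epithelial and stromal cells, was the gene of the set that most separated the strains. It had values of 9.94, 9.19 and 9.12 in DBA arch and 5.00, 6.36 and 6.28 in B6 arch, against 9.03, 9.79 and 9.24 in 129 arch. DBA and 129 values overlapped, and their difference of 0.07 ± 0.39 did not pass, with a 95% interval of -0.81 to 0.94. The highest B6 value, 6.36, lay far below the lowest of the other arches, 9.03. Cxcl14 was 11.1-fold lower in B6 than in 129 arch (log2 difference -3.47 ± 0.39, adjusted p = 0.00302) and 11.6-fold higher in DBA than in B6 arch (3.54 ± 0.39, adjusted p = 0.00254). Both calls held in every alternative limma fit. The Tukey-Kramer test of the study's methods, after Benjamini-Hochberg adjustment, left 0 genes of the set between DBA and B6 arch. Between B6 and 129 arch it left 1, and it gave only the count.

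Cxcr2 had values of 6.62, 6.63 and 7.38 in DBA arch and 4.86, 5.81 and 5.04 in B6 arch, against 6.50, 6.97 and 7.27 in 129 arch. B6 lay below both other strains on every array. The log2 difference was -1.68 ± 0.31 for B6 against 129 arch (adjusted p = 0.0375) and 1.64 ± 0.31 for DBA against B6 arch (adjusted p = 0.0402), while DBA differed from 129 by -0.04 ± 0.31. Both calls were sensitive to single arrays. That of B6 against 129 was lost without DBA replicate 1 or 2, B6 replicate 1 or 3, or any 129 replicate (adjusted p = 0.0506 to 0.141, within a range of 0.0123 to 0.141 over all alternatives). That of DBA against B6 was lost without any single array other than B6 replicate 2 (0.054 to 0.137, range 0.0135 to 0.137). When both arrays with the most transcripts of other organs were left out, adjusted p was 0.097 for B6 against 129 and 0.104 for DBA against B6, and with 6 arrays alone it was 0.0709 and 0.103. Neutrophil markers moved with Cxcr2. Their 6 members averaged 4.85 to 5.70 on the DBA arch arrays and 3.72 to 4.49 on the B6 arch arrays, against 4.98 to 5.31 on the 129 arch arrays. S100a8, S100a9 and Retnlg were called between DBA and B6 (log2 differences of 2.49, 1.88 and 2.63) and Retnlg between B6 and 129 (-2.53), while Elane and Mpo, markers of immature neutrophils, were dim in every group, with means between 3.56 and 4.03. The part of these cells in the difference of Cxcr2 was not tested.

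**Figure D2:**
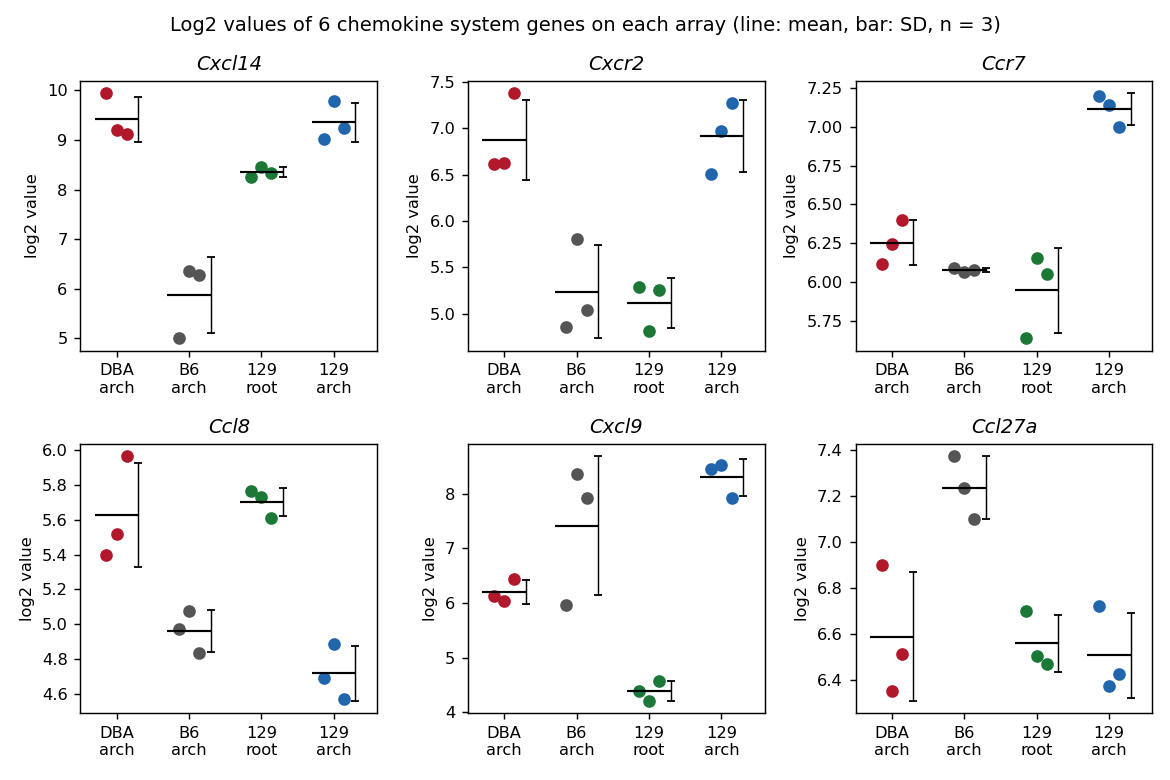
Log2 values of 6 genes, 1 point per array and 4 groups per panel, with the mean (line) and SD (bar, n = 3). Cxcl14 and Cxcr2 are low in B6 arch, Ccr7 is high only in 129 arch among the 4 groups, Ccl8 is high in DBA arch and 129 root, Cxcl9 has 1 B6 arch array at 5.97 and 2 at 7.92 and 8.37, and Ccl27a lies at 7.10 or above in B6 arch.

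Between DBA and B6 arch 2 genes were called, Cxcl14 and Cxcr2, both higher in DBA, which was 3.85% of the set against 1.55% of all genes. However, 17 genes (32.7%) did not overlap between these groups, 12 higher and 5 lower in DBA, against 17.1% of all genes. The median log2 difference was 0.11, against 0.02 over all genes. Several of these 17 lay near the threshold. Ccl11, the eosinophil attractant eotaxin, had values of 7.20, 7.51 and 7.08 in DBA arch, against 7.80, 7.93 and 7.88 in B6 arch (log2 difference -0.61 ± 0.14, adjusted p = 0.0806). Ccl17, a ligand of Ccr4, had 4.55, 5.00 and 4.81 in DBA arch, against 3.87, 4.02 and 4.27 in B6 arch (0.74 ± 0.18, adjusted p = 0.0875). Ccl8 differed by 0.67 ± 0.16 (adjusted p = 0.0971), Ccl5 by -0.69 ± 0.17 (0.100) and Ccl27a by -0.65 ± 0.16 (0.111). None of these 5 passed, although none overlapped between the groups. Ccl27a, a chemokine of skin, has near-identical copies. Its probe set held the same 12 values as clusters annotated with several symbols, so it cannot be read as a single gene. Ccl27a was at 7.37, 7.23 and 7.10 in B6 arch, above all other arrays (6.35 to 6.90), and differed from 129 arch by 0.73 ± 0.16 (adjusted p = 0.0817). Over alternatives adjusted p ranged from 0.0311 to 0.399 for B6 against 129 arch and from 0.0488 to 0.419 for DBA against B6 arch. A dimmer probe set of this gene had means of 4.58 in DBA arch, 4.76 in B6 arch, 4.60 in 129 arch and 4.73 in 129 root.

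Cxcl9, a ligand of Cxcr3 that interferon gamma induces, had its largest strain difference between DBA and 129 arch but was not called. Values were 6.13, 6.03 and 6.45 in DBA arch, against 8.46, 8.53 and 7.92 in 129 arch, with no overlap and a log2 difference of -2.10 ± 0.52 (adjusted p = 0.113). In B6 arch Cxcl9 was 5.97 on replicate 1 and 8.37 and 7.92 on replicates 2 and 3. Replicate 1 of B6 is the array with hepatocyte transcripts, and its spread entered the shared error. Without that array adjusted p was 0.00186 for DBA against 129 and 0.00597 for DBA against B6, and with the 6 arrays of DBA and 129 arch alone it was 0.00388, within ranges over all alternatives of 0.00186 to 0.303 and 0.00597 to 0.633. Ifng, the gene of interferon gamma, was dim in all groups, with means between 4.37 and 4.51, and Cxcl10 and Cxcl11, which share the receptor of Cxcl9, were called in no comparison.

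The aortic root of 129 mice differed from the arch in 20 of the 52 genes, 10 higher and 10 lower. The monocyte attractants Ccl2, Ccl7 and Ccl8, and Cx3cl1 and Cxcl16 with their receptors, were among the genes higher in the root, while Cxcl9, Cxcl14, Cxcr2, Ccr7 and Ccr9 were among those lower. The share called was 38.5%, against a background of 15.8% of all genes. The 3 arrays of each region did not overlap for 25 genes (48.1%, against 35.8% of all genes). The median log2 difference was -0.08 over the set and 0.00 over all genes, while the median of its absolute size was 0.46 against 0.18. The region was compared in this strain alone, and root and arch pools held different numbers of mice.

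Ccl2 and Ccl7, the monocyte chemoattractants that act through Ccr2, rose most. Ccl2 had values of 7.97, 7.47 and 7.67 in 129 root, against 6.21, 4.93 and 6.09 in 129 arch, a log2 difference of 1.96 ± 0.34 (adjusted p = 0.00859). Ccl7 had values of 7.76, 7.00 and 6.95 in 129 root, against 5.89, 5.47 and 6.21 in 129 arch (1.38 ± 0.27, adjusted p = 0.0144). The regions did not overlap for either gene, and the root values were also above all DBA and B6 arch values (at most 6.49 for Ccl2 and 6.40 for Ccl7). Ccl8 had 5.76, 5.73 and 5.61 in 129 root, against 4.69, 4.89 and 4.57 in 129 arch (0.98 ± 0.11, adjusted p = 0.00132). Ccl12, a further Ccr2 ligand, had 5.29, 4.34 and 4.79 in 129 root, against 4.31, 3.81 and 3.47 in 129 arch, and its difference of 0.95 ± 0.29 did not pass (adjusted p = 0.0731). These genes are neighbours on Chr 11, in the order Ccl2, Ccl7, Ccl11, Ccl12, Ccl8 and Ccl1 in the RefSeq gene table. Ccl11, between Ccl7 and Ccl12, fell, with values of 7.10, 6.97 and 6.65 in 129 root against 7.89, 7.79 and 7.55 in 129 arch (-0.84 ± 0.15, adjusted p = 0.00978). Ccl1, the outermost, was dim in both regions, with a difference of -0.18 ± 0.17. Neighbouring genes of this cluster thus moved in opposite directions between the regions.

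In the other Ccl cluster of Chr 11, Ccl9, a rodent ligand of Ccr1, had 8.67, 8.36 and 8.23 in 129 root, against 7.53, 6.90 and 7.86 in 129 arch. It rose by 0.99 ± 0.25 (adjusted p = 0.0374). Its call was lost without arch replicate 1 or any of the root replicates (adjusted p = 0.0714 to 0.116, all alternatives 0.0145 to 0.116). Ccl6, a close relative, had 7.34, 6.75 and 6.51 in 129 root, against 5.80, 5.72 and 6.38 in 129 arch (0.90 ± 0.26, adjusted p = 0.0589). Ccl5, a chemokine of T cells and platelets from the same cluster, fell, with 5.98, 5.53 and 5.61 in 129 root against 6.53, 6.34 and 6.52 in 129 arch (-0.76 ± 0.14, adjusted p = 0.0111). Ccl3 and Ccl4, ligands made by activated macrophages, differed by 0.24 ± 0.18 and -0.02 ± 0.13 and did not pass.

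**Figure D3:**
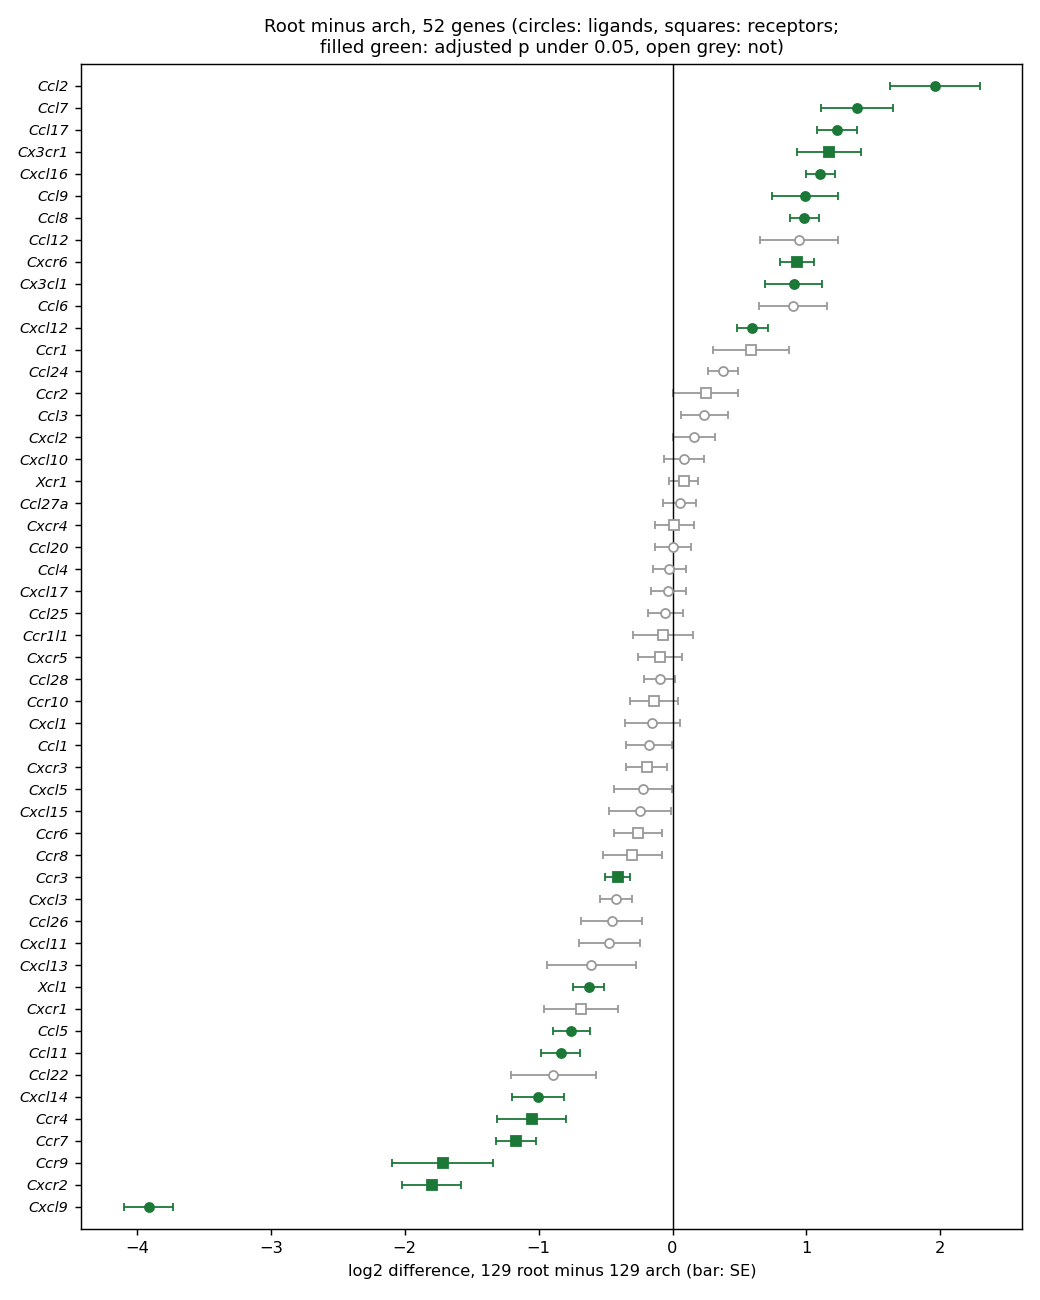
Log2 difference of each of the 52 genes between 129 root and 129 arch (x axis, bars are SE), ordered by size, with circles for ligands, squares for receptors and filled green symbols for genes called. Ccl2 is at 1.96 at the top and Cxcl9 at -3.91 at the bottom, far from the next gene, Cxcr2, at -1.80.

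Both chemokines that are made as membrane-bound proteins rose in the root together with their receptors. Cx3cl1 (fractalkine) had 7.96, 7.88 and 7.23 in 129 root, against 6.59, 7.02 and 6.74 in 129 arch (0.90 ± 0.21, adjusted p = 0.0304). Cx3cr1, its receptor on resident macrophages and patrolling monocytes, had 5.96, 6.86 and 6.71 in 129 root, against 5.23, 5.56 and 5.23 in 129 arch (1.17 ± 0.24, adjusted p = 0.0172). The regions did not overlap for either gene. Cxcl16, which also binds oxidised lipoprotein, had 8.72, 8.67 and 8.75 in 129 root, against 7.42, 7.64 and 7.76 in 129 arch (1.10 ± 0.11, adjusted p = 0.000836). Cxcr6, its receptor on T cells and innate lymphocytes, had 5.42, 5.25 and 5.19 in 129 root, against 4.32, 4.59 and 4.17 in 129 arch (0.93 ± 0.13, adjusted p = 0.00362). Cxcr6 was thus higher where the T cell markers were lower. The calls of Cxcl16 and Cxcr6 held in every alternative limma fit, but the difference of Cxcr6 was under the 2-fold minimum. That of Cx3cl1 was lost without arch replicate 1 or 3 or root replicate 1 or 2 (0.0823 to 0.0975, range 0.00819 to 0.0975), and that of Cx3cr1 without arch replicate 1 or 3 or root replicate 2 or 3 (0.0513 to 0.0657, range 0.00274 to 0.0657).

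Cxcl12, the brightest gene of the set, rose by 0.59 ± 0.12 in the root (adjusted p = 0.0143), and its values of 10.56, 10.79 and 10.60 lay above all 9 arch arrays. This call was lost without root replicate 2 (adjusted p = 0.0504, range 0.000514 to 0.0504). Its receptor Cxcr4 differed by 0.01 ± 0.14, with a 95% interval of -0.33 to 0.36. Ccl17 had 5.84, 5.80 and 5.56 in 129 root, against 4.45, 4.78 and 4.27 in 129 arch, and rose by 1.23 ± 0.15 (adjusted p = 0.00202). Its receptor Ccr4, carried by a subset of T cells, fell, with 3.65, 3.50 and 3.50 in 129 root against 5.22, 4.19 and 4.39 in 129 arch (-1.05 ± 0.25, adjusted p = 0.0329). The call of Ccr4 was lost without arch replicate 3 or any root replicate and with quantile normalisation (0.0538 to 0.100, range 0.0101 to 0.100). Ccl22, the other Ccr4 ligand, had 3.39, 3.66 and 3.02 in 129 root and 4.85, 3.60 and 4.31 in 129 arch (-0.89 ± 0.32, adjusted p = 0.112). The regions overlapped for Ccl22, so the ligands of Ccr4 did not move alike.

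Over 17 textbook pairs of ligand and receptor, both partners were called in the same direction in 3 pairs: Cx3cl1 and Cx3cr1, Cxcl16 and Cxcr6, and Ccl11 and Ccr3, the last of these lower in the root. Both were called in opposite directions in 1 pair, Ccl17 and Ccr4. In 9 pairs 1 partner was called and in 4 neither. Ccr2 itself had 5.42, 6.30 and 5.73 in 129 root and 5.33, 5.48 and 5.88 in 129 arch. Its difference was 0.25 ± 0.24 (95% interval -0.32 to 0.82), although its ligands Ccl2 and Ccl7 rose. Pairs that share a partner are not independent, and the list was drawn up with the results known.

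**Figure D4:**
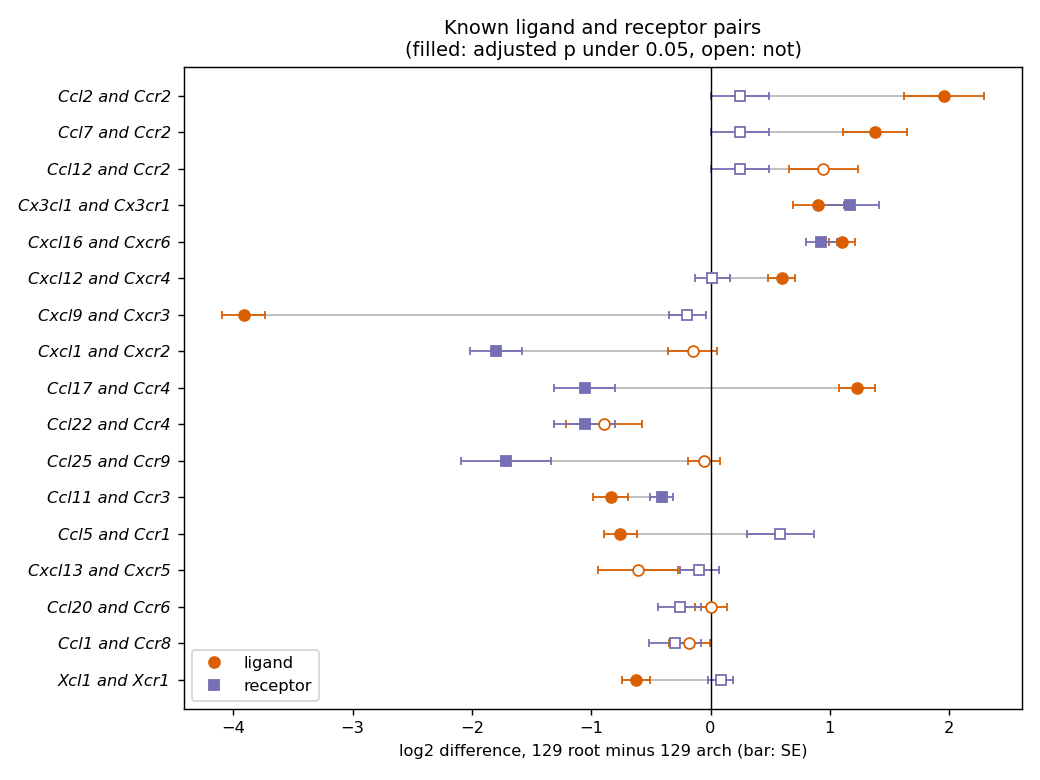
Log2 difference between 129 root and 129 arch (x axis, bars are SE) for the ligand (circle) and the receptor (square) of 17 pairs, filled where called. Both symbols are right of 0 and filled for Cx3cl1 with Cx3cr1 and for Cxcl16 with Cxcr6, and Ccl17 at 1.23 faces Ccr4 at -1.05.

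The largest difference of the set was that of Cxcl9, which was 15.1-fold lower in the root. Its values were 4.40, 4.20 and 4.57 in 129 root, against 8.46, 8.53 and 7.92 in 129 arch (-3.91 ± 0.18, adjusted p = 4.65e-05). Every root value was also below every DBA and B6 arch value, the lowest of which was 5.97. Its receptor Cxcr3 had a difference of -0.19 ± 0.15 (95% interval -0.56 to 0.17), and Cxcl10, with values between 3.81 and 4.68 on all 12 arrays, differed by 0.09 ± 0.15. Cxcl14 had 8.25, 8.46 and 8.33 in 129 root, against 9.03, 9.79 and 9.24 in 129 arch, and was 2.01-fold lower in the root (adjusted p = 0.0139). This call was lost without root replicate 1 or 3 (0.0522 and 0.0516) and with all 12 arrays in one fit (0.101, range 0.00425 to 0.101). Root values of Cxcl14 nevertheless lay above the highest B6 arch value, 6.36. Xcl1, a chemokine of natural killer and T cells, fell to 3.36, 3.33 and 3.57 in 129 root, against 3.94, 4.22 and 3.99 in 129 arch (-0.63 ± 0.12, adjusted p = 0.0118).

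Of the 18 receptors, 5 were lower in the root (Ccr3, Ccr4, Ccr7, Ccr9 and Cxcr2), 2 were higher (Cx3cr1 and Cxcr6) and 11 were not called. Ccr7 had 5.63, 6.15 and 6.05 in 129 root, against 7.20, 7.15 and 7.00 in 129 arch (-1.17 ± 0.15, adjusted p = 0.00234). Ccr9, the receptor that thymocytes and gut T cells use to follow Ccl25, had 2.40, 3.19 and 2.39 in 129 root, against 5.20, 3.92 and 4.02 in 129 arch (-1.72 ± 0.38, adjusted p = 0.0226). Ccl25 itself differed by -0.05 ± 0.13. Cxcr2 had 5.28, 4.81 and 5.25 in 129 root, against 6.50, 6.97 and 7.27 in 129 arch, a fall of 1.80 (SE 0.22, adjusted p = 0.00199). Ccr3, the eosinophil receptor for Ccl11, was very dim, with 2.21, 2.44 and 2.28 in 129 root against 2.68, 2.74 and 2.74 in 129 arch (-0.41 ± 0.09, adjusted p = 0.0258). The regions overlapped for none of these 4 receptors. The calls of Ccr7 and Cxcr2 held in every alternative run. That of Ccr9 was lost without root replicate 1 or 3 (0.078 and 0.0806, range 0.0101 to 0.0806), and that of Ccr3 without any single array other than root replicate 2, with quantile normalisation and with a robust trended prior (0.0503 to 0.0942, range 0.0113 to 0.0942).

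Cell type markers moved with the region. Of 9 macrophage markers 8 were higher in the root (median log2 difference 1.53), and their array means were 8.57 to 8.79 in 129 root, against 6.95 to 7.54 in 129 arch. Of 9 T cell and thymocyte markers 8 were lower (median -2.61, array means 4.47 to 4.71 in 129 root, against 6.59 to 7.49 in 129 arch), as were 4 of 5 B cell markers and 4 of 6 neutrophil markers (array means 3.67 to 4.27 in 129 root, against 4.98 to 5.31 in 129 arch). Lymphatic endothelial markers were all higher, 5 of 5, with a median of 1.86, and 5 of 6 cardiomyocyte markers were higher, whereas none of the 7 smooth muscle markers was called. Of 6 thymic epithelium markers, Foxn1, Psmb11, Prss16 and Aire had means between 3.62 and 4.65 in every group and Tbata between 4.85 and 5.29, and none of these 5 was called in any comparison. The other, Ly75, which dendritic cells also carry, was lower in the root (mean 5.08) than in 129 arch (5.45), and was higher in DBA arch (7.83) and B6 arch (7.73) than in 129 arch. The lower Ccr4, Ccr7, Ccr9 and Cxcr2 thus stood beside lower T cell and neutrophil markers, and the higher Ccl2, Ccl7, Ccl8 and Cx3cr1 beside higher macrophage markers, and the part of cell composition in these differences was not tested.

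**Figure D5:**
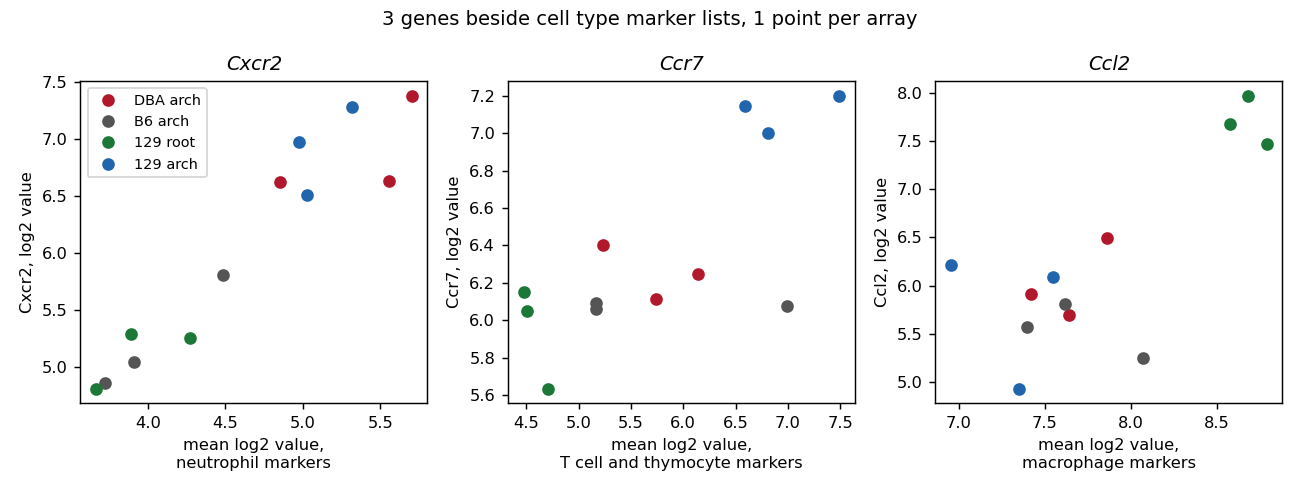
Log2 value of Cxcr2, Ccr7 and Ccl2 (y axes) against the mean log2 value of neutrophil, T cell and thymocyte, and macrophage markers (x axes), 1 point per array, coloured by group. The B6 arch and 129 root arrays lie at the low end of the neutrophil axis with Cxcr2 under 6, and the 3 root arrays lie at the high end of the macrophage axis with Ccl2 between 7.47 and 7.97.

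Genes that act with the chemokine system were read from lists, whose counts stand against 15.8% of all genes called between root and arch and 1.44% to 1.55% between strains. Of 6 atypical receptors, which bind chemokines without the usual signalling, Ackr2, a scavenger of inflammatory Ccl chemokines, was higher in the root (6.80, 6.58 and 6.45 in 129 root, against 6.04, 5.87 and 5.82 in 129 arch, adjusted p = 0.00876). Pitpnm3, described in human as a receptor of CCL18, was lower in DBA arch, at 6.08, 5.93 and 5.72, than in B6 arch, at 7.06, 6.58 and 6.60, and than in 129 arch, at 6.86, 7.06 and 6.88 (adjusted p = 0.0407 and 0.0160). Ackr3, the scavenger of Cxcl12, had group means between 7.66 and 7.78. Of 5 platelet and related attractants, Ppbp, a precursor of Cxcr2 ligands in platelets, was lower in the root by 2.76 on the log2 scale (8.53, 7.54 and 8.30 in 129 root, against 9.80, 11.46 and 11.39 in 129 arch, adjusted p = 0.00861), and Cmklr1, the chemerin receptor, was higher by 1.10. Neither was called between strains.

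Among 15 genes of receptor signalling, Rac2, the GTPase of moving leukocytes, was lower in DBA arch (7.77, 7.86 and 7.98) and in B6 arch (7.65, 7.78 and 7.68) than in 129 arch (8.63, 8.43 and 8.48), with adjusted p = 0.0228 and 0.00841. It was also lower in the root (7.82, 7.93 and 7.69, adjusted p = 0.00476). Like Ccr7, Rac2 was highest in 129 arch, with no array of the other groups overlapping those of 129 arch. Elmo1, an adaptor of Rac activation, was higher in B6 than in 129 arch (by 0.73) and in the root (by 1.10), and Plcb2, a phospholipase of leukocytes, was lower in B6 (-1.25). Arrb1 was higher and Rgs2 lower in the root, and the other 10 signalling genes were called in no comparison. Of 13 genes that process or present chemokines, none was called between strains, and 4 were called in the root, where Dpp4, Mmp2 and Mmp12 were higher and Mmp8, the neutrophil collagenase, was lower (by 0.50, 0.63, 0.82 and -1.63). Of 24 inducers of chemokine transcription, none was called between strains, and 5 were called between root and arch, a share near that of all genes. In the root Il33, Il1r1, Tlr2 and Tlr4 were higher (by 1.39, 0.69, 0.94 and 0.56) and Il1b was lower (-1.41). Medians of these 5 lists between root and arch were 0.25, -0.17, 0.08, 0.20 and 0.11, against 0.00 over all genes.

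Cxcl15, a chemokine of mouse lung epithelium, had a value of 7.98 on DBA arch replicate 2 and values between 2.92 and 3.76 on all other arrays. Cxcl17, a chemokine of mucosal tissue, was also highest there, at 5.83 against 4.09 to 4.94 elsewhere. This array is the one with lung epithelium markers at 8.64. Cxcl13 and its receptor Cxcr5, which organise B cell follicles, were called in no comparison. Cxcl13 had values between 5.09 and 6.64, and its difference of -0.61 ± 0.33 between root and arch passed only without root replicate 1 (adjusted p = 0.041, range 0.0410 to 0.575). The neutrophil attractant Cxcl1 had 4.41, 5.09 and 5.19 in 129 root and 5.12, 5.09 and 4.92 in 129 arch, so the ligand values overlapped where the receptor Cxcr2 did not.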

How the data were processed

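RNA of 12 pools of mice was hybridised to Affymetrix arrays on a single plate. The deposited values are log2 intensities, 1 per transcript cluster and array, which the authors normalised, with Affymetrix Expression Console named for analysis and quality control. Sources used here name neither a summarisation method nor a genome build or detection calls. Of 41345 clusters, 23521 had 1 symbol in the platform annotation, 1820 several and 16004 none, and the brightest cluster with 1 symbol stood for a gene, which left 22180 genes, 21994 of them found in RefSeq (GRCm38.p6, used for names and gene order). No filter was applied and no pseudocount added. Differences were fitted with limma 3.58.1 (R 4.3.3, lmFit and eBayes, two-sided, Benjamini-Hochberg over all genes), with the 9 arch arrays in one model and the 6 arrays of 129 mice for the region. The fit was tested on simulated data. Errors are SE of the model or SD over 3 arrays, folds are 2 raised to a log2 difference, and the number of arrays limits the precision. Genes were named if called in any comparison, among the 10 brightest, on a short list of well-known members or largest in a comparison, and otherwise after their values were seen. Members, gene lists, pairs and motifs were chosen with earlier results of these data known. Alternatives were other scalings, filters, priors, sample sets, clusters, the replicate block, a 2-fold minimum, omission of each array, and the methods' Tukey-Kramer test. Ranges of adjusted p over alternatives cover the limma fits, since the 2-fold minimum and the Tukey-Kramer test gave only counts.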

Additional observations from a re-analysis of the deposited data

Results flagged for a closer look

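Clusters annotated with several symbols were outside all comparisons, and 33 of them carry symbols of the Ccl19, Ccl21 or Ccl27 families, which have near-identical gene copies in mice. The value of a single copy cannot be read from them, and some hold identical values, so they are not independent. Their level in some groups lay above every 129 arch array, and this was not tested. The 9 clusters of the Ccl21 family, lymphatic ligands of Ccr7, had array medians of 10.60, 11.03 and 10.87 in 129 root, with a mean of 10.8, against 6.52, 7.68 and 7.98 in 129 arch. The root arrays also lay above the DBA arch arrays (6.60 to 8.24) and the B6 arch arrays (6.68 to 7.37). Root and arch stood 3.44 apart on the log2 scale, while Ccr7, the receptor, was lower in the root, and 5 of 5 lymphatic endothelial markers were higher there. The 13 clusters of the Ccl19 family, also ligands of Ccr7, had a mean array median of 9.18 in 129 root (9.07 to 9.37) and 8.96 in B6 arch (8.53 to 9.50), against 8.03 to 8.27 in 129 arch. DBA arch was lower, at 7.02 to 7.46. The 11 clusters of the Ccl27 family had a mean of 7.24 in B6 arch (7.10 to 7.37), against 6.38 to 6.59 in 129 arch. These B6 arch medians are the same values as those of the Ccl27a probe set, whose difference from 129 arch was tested above and did not pass. The medians are therefore not a separate observation, but single clusters of the family held other values. A cluster chosen after its values were seen had 8.70, 7.95 and 8.08 in B6 arch, against 5.82, 6.21 and 5.94 in 129 arch. This cluster had 5.37, 5.32 and 5.22 in DBA arch and 6.54, 6.36 and 6.45 in 129 root. Its differences were not tested.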

How the results depend on the processing

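The number of chemokine system genes called was 2 for DBA against 129 arch, 3 for B6 against 129 arch, 2 for DBA against B6 arch and 20 for root against arch. No call changed direction under any alternative run. Over fits that left out 1 array the counts were 1 to 3, 2 to 3, 1 to 2 and 14 to 20, in the same order. For DBA against 129 arch the count was 1 without the dimmer genes, 0 with a 2-fold minimum (limma, where 12 genes had an unadjusted p under 0.05), and 7 with the methods' Tukey-Kramer test, of which 1 remained after Benjamini-Hochberg. For B6 against 129 arch it was 5 with all 12 arrays in one fit and 7 with Tukey-Kramer, or 1 after Benjamini-Hochberg. For DBA against B6 arch it was 5 with all 12 arrays, 1 with the 6 arrays alone, and 9 with Tukey-Kramer, or 0 after Benjamini-Hochberg. For root against arch it was 11 with a 2-fold minimum. Of the differences that were not called, Ccl8, Ccl11, Ccl17 and Ccl27a between DBA and B6 arch and Ccl27a between B6 and 129 arch each passed under 1 or 2 alternatives (adjusted p = 0.0311 to 0.0488). The cause of these changes was not tested.

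Deviations of same-numbered arrays correlated at -0.089 to 0.111, which cannot settle whether root and arch pools of 129 mice shared animals. With the replicate number as a block the counts were 1, 2, 1 and 19. The block ended the calls of Ccl8 for DBA against 129 arch (adjusted p = 0.0924), of Cxcr2 for B6 against 129 and DBA against B6 arch (0.0546 and 0.0581), and of Ccl9, Ccr3 and Ccr9 for root against arch (0.0604, 0.0534 and 0.0615), beside the losses given for each gene above. Median centring of arrays moved the median difference of all genes between root and arch to -0.11 and the share of higher calls over all genes to 34.2%, against 52.9% as deposited, while the 52 genes had 10 higher and 11 lower calls. Quantile normalisation gave 10 higher and 8 lower. Signal over background is unknown for dim genes such as Ccr3 and Ccr9. Their differences may be understated, or may lie in background, and these cannot be told apart.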
